A study of Saccharomyces cerevisiae with 64 samples.

Results

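Polyamine export and synthesis genes were followed through yeast sporulation: 8 genes of the 6660 in the table, namely the exporters TPO1 (YLL028W), TPO2 (YGR138C) and TPO4 (YOR273C), the biosynthetic enzymes SPE1 (YKL184W), SPE2 (YOL052C), SPE3 (YPR069C) and SPE4 (YLR146C), and the antizyme gene OAZ1 (YPL052W). They were chosen by function, with the ratios of this table already known, the genotype differences of TPO2 among them, so the differences below are a description of these genes and no test of them. The exporter gene TPO3 was also sought and is not among the 8.

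S288c cells were sampled under sporulation conditions, in which starved yeast enters meiosis and forms spores, and their polyadenylated RNA was sequenced. The 64 samples made 32 groups of 2 biological replicates, and each group was 1 genotype (wild type or kfc1--), 1 overexpression arm (none, IME1, or IME1 and RIM4) and 1 time. The arms without overexpression and with IME1 were sampled at 0, 2, 4, 6, 8 and 12 h, and the arm with IME1 and RIM4 at 0, 12, 24 and 48 h. In the overexpression arms the titles place IME1, the transcriptional activator of early meiotic genes, and RIM4, an RNA-binding protein of meiosis, behind a promoter called Pzev, a name used in yeast for an estradiol-inducible promoter. The gene lost in kfc1-- is taken, from knowledge of the study's field, to be VIR1 (YGL036W), a subunit of the complex that methylates adenosines of meiotic mRNA.

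Each group was given as a single log2 ratio per gene, in which the authors had combined the replicates. The spread between replicates is therefore unknown, no difference below could be compared with it, and no p-value is given. Every value is a log2 ratio whose denominator is the wild-type 0 h condition with no overexpression, and a difference is one such ratio minus another. In each comparison a gene was called higher or lower where its mean log2 difference over the times was at least 1 in size, which is 2-fold, with the same sign at every time, and at a single time by size alone. The percentage of all genes called by the same rule stands beside each count of members under that rule. It is not given for the counts under other settings at the end of the report.

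Polyamines are small positively charged molecules that bind nucleic acids, and every yeast cell makes them. Ornithine decarboxylase, encoded by SPE1, makes putrescine. S-adenosylmethionine decarboxylase, encoded by SPE2, supplies the aminopropyl donor with which the SPE3 product makes spermidine and the SPE4 product makes spermine. OAZ1 encodes the antizyme, which binds ornithine decarboxylase and sends it to the proteasome. Tpo1, Tpo2 and Tpo4 are drug:H+ antiporters of the DHA1 family in the plasma membrane and carry polyamines out of the cell. Spermidine is the donor for hypusine, the modified lysine of translation factor eIF5A, and yeast that cannot make spermidine and spermine does not sporulate.

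Antizyme is made only when ribosomes skip a base at an in-frame stop codon, and polyamines favour that step, so its output can change without a change in its mRNA. The site is shown because an OAZ1 mRNA ratio does not report on it. In the R64 RefSeq annotation OAZ1 lies at chrXVI:458799-459678 on the forward strand in 2 coding segments of 207 and 672 bases, and the stop codon in capitals follows 69 codons. Its first base, position 459006, is the one left out between the segments.
OAZ1 frameshift site (chrXVI:458991-459021, forward strand): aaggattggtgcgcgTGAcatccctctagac

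The other genes each have 1 coding segment in the same annotation, and no other protein-coding gene of RefSeq overlaps any of the 8. TPO1 lies at chrXII:84804-86564 and SPE1 at chrXI:96757-98157, both on the forward strand. On the reverse strand lie TPO2 at chrVII:763762-765606, TPO4 at chrXV:834452-836431, SPE2 at chrXV:232446-233636, SPE3 at chrXVI:684556-685437 and SPE4 at chrXII:432823-433725.

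Of the 50-base windows of TPO2, 41.3% occur elsewhere in the genome, and no such window of the other 7 members does. How reads that match more than 1 place were assigned is not given in the sources used here, so the ratios of TPO2 are uncertain to that extent. Which genes hold the shared windows was not recorded. TPO2 was not compared with TPO3, so signal of that gene in the TPO2 ratios cannot be told apart. The pairs among the 3 exporters share 57.2% to 62.4% of aligned coding bases, and SPE3 and SPE4, 2 related synthases, share 64.9%.

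Promoters are printed for the 3 members called with IME1 (TPO2 and SPE4 higher, TPO4 lower) and for TPO1, the other exporter among the members. Each window runs from 250 bases before the start codon through the first 50 bases of the coding sequence, in the orientation of the gene, with searched motifs in capitals.
TPO2 (chrVII:765557-765856, reverse strand): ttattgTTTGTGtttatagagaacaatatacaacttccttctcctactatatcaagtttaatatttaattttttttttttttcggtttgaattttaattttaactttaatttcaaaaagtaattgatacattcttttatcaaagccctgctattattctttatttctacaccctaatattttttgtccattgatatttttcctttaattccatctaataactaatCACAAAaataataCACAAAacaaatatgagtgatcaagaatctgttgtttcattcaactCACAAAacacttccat
SPE4 (chrXII:433676-433975, reverse strand): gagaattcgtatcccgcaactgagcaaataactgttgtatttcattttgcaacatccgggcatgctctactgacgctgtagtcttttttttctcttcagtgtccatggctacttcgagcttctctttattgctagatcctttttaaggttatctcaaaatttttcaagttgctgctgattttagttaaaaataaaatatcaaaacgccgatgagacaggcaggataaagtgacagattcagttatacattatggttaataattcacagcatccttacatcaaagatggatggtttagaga
TPO4 (chrXV:836382-836681, reverse strand): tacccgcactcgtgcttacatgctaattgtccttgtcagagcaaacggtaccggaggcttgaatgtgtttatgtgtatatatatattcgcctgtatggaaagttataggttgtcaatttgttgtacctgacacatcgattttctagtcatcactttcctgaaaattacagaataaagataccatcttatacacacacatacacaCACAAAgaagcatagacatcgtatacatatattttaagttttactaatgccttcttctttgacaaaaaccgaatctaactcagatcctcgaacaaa
TPO1 (chrXII:84554-84853, forward strand): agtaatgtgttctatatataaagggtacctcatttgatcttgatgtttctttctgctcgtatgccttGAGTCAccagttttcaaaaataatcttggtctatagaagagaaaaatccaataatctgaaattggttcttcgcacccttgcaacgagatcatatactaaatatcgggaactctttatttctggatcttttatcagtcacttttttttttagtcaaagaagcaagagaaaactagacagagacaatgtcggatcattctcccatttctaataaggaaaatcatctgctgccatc

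The motifs were searched as plain letters on both strands, and capitals in the windows above mark the 2 motifs described first. CACAAA, the core of the site of the meiotic activator Ndt80, was found in the windows of TPO2 and TPO4, and in 18.8% of 6001 promoter windows. The 4 matches of TPO2 lay at -244, on the reverse strand, and at -25, -12 and 34 from the start codon, the last inside the coding sequence, and the match of TPO4 lay at -46. TGACTC, the core site of the amino acid starvation activator Gcn4, was found at -183 of TPO1 on the reverse strand and in 7.98% of windows. GATAAG, the site of GATA factors, was found among the members only in SPE3 and in 14.7% of windows. TCCGCGGA and TCCACGGA (Pdr1 and Pdr3, in 0.217% and 0.400% of windows), GGCGGC (Ume6, 5.13%) and AGGGG (Msn2 and Msn4, 21.6%) had no match in the 8 windows. These letter matches are short and common, and no measure of binding was part of the data.

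The labels could be checked in part. VIR1 ratios ran from -9.41 to -4.70 in the kfc1-- conditions and from -0.07 to 2.07 in wild type. In wild type IME1 itself had ratios of 1.94 to 4.01 with IME1, of 0.14 to 4.02 with IME1 and RIM4, and of 0.00 to 1.09 without overexpression. In kfc1-- it ran from 0.59 to 3.72 with IME1 and from 1.22 to 3.83 with IME1 and RIM4, against -0.86 to 0.81 without overexpression. Wild type with IME1 and RIM4 and kfc1-- with IME1 thus overlapped their genotype without overexpression. RIM4 reached 4.23 in wild type with IME1 and RIM4 and 3.72 with IME1 alone. The marker genes differed between strains. LEU2 lay between 6.87 and 7.91 in wild type with IME1 and had no value in kfc1-- with IME1 or in either genotype with IME1 and RIM4. URA3 lay between 6.90 and 7.94 in wild type with IME1 and between 4.47 and 8.25 in kfc1--. With IME1 and RIM4 URA3 had 1 value in wild type, 1.13, and lay between 5.77 and 9.19 in kfc1--. Without overexpression it lay between -0.06 and 0.04. Markers thus cannot be told apart from arm, or from genotype in the overexpression arms. The titles mark 24 wild-type samples, all of those in the arm with IME1 and in the arm with none, as re-used, and their descriptions point to sample records that are not among the 64 here. In those 2 arms genotype and such re-use cannot be told apart. Wild type with IME1 at 0 h stood apart from the other 0 h conditions, with an SD over genes of 0.937 against 0.344 to 0.675 in the others that have a ratio.

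The exporters varied most. TPO2 spanned 4.59 on the log2 scale over the 32 conditions, TPO1 spanned 3.72 and TPO4 3.46, and 4.91%, 9.89% and 12.3% of the 6479 genes with a value in every condition spanned more. The median gene spanned 1.84. SPE4 (2.10) and SPE3 (1.94) lay near that median, and SPE2 (1.55), SPE1 (1.27) and OAZ1 (1.11) below it.

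**Figure D1:**
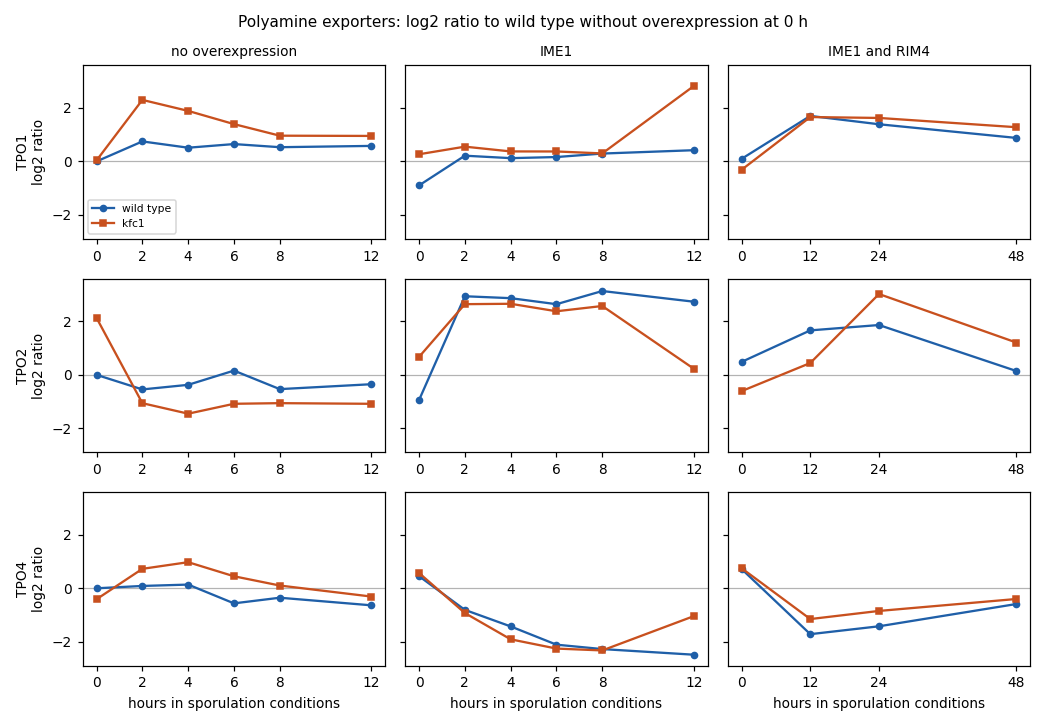
Log2 ratio to wild type without overexpression at 0 h (vertical axes) of TPO1, TPO2 and TPO4 against hours in sporulation conditions (horizontal axes), 1 point per combined condition, lines joining the times of a genotype and arm. TPO2 with IME1 sits between 2.38 and 3.14 at 2 to 8 h in both genotypes and is at 0.23 at 12 h in kfc1-- against 2.74 in wild type.

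Without overexpression, TPO2 differed between the genotypes at the start and in the opposite direction afterwards. At 0 h its ratio in kfc1-- was 2.13, a 4.39-fold difference from wild type and the largest positive one of 6510 genes. It was the only member called at 0 h, where 1.64% of all genes were called. The other 7 members differed by 0.41 or less in size.

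From 2 h on, TPO2 in kfc1-- lay below wild type at all 5 times. The kfc1-- ratios were -1.06, -1.45, -1.08, -1.06 and -1.08 at 2, 4, 6, 8 and 12 h, against -0.55, -0.37, 0.16, -0.53 and -0.35 in wild type. RNA was taken from whole cultures, so fewer cells with the transcript and less of it per cell cannot be told apart here or below. The 2 sets did not overlap, and the mean difference was -0.82, below the size of a call. Against its own 0 h, kfc1-- was lower by a mean of 3.28, with -3.59 to -3.19 over the times, and only 3 of 6493 genes had a more negative mean. In wild type the mean was -0.33. The change over time in kfc1-- minus that in wild type was -2.95, the lowest of 6482 genes. By construction it is the mean difference of -0.82 minus the 2.13 at 0 h. This value, the mean of -3.28 and the rank at 0 h thus share 1 combined kfc1-- condition and are not separate results.

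TPO1 and TPO4 moved the other way in kfc1-- without overexpression. TPO1 stood at 2.30, 1.89, 1.40, 0.96 and 0.95 at 2 to 12 h in kfc1-- and at 0.75, 0.51, 0.65, 0.53 and 0.58 in wild type. Every kfc1-- value lay above every wild-type value, and the difference shrank from 1.55 at 2 h to 0.37 at 12 h. TPO4 stood at 0.73, 0.98, 0.45, 0.10 and -0.31 in kfc1-- and at 0.09, 0.14, -0.56, -0.35 and -0.64 in wild type. It was higher in kfc1-- at each of the 5 times, by 0.33 to 1.01, although the ranges of the 2 genotypes overlapped.

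None of the 8 members was called between genotypes at 2 to 12 h, where 1.80% of all genes were called, since the mean differences were 0.90 for TPO1 and 0.66 for TPO4. TPO1 alone reached a call when 8 h (1.01) or 12 h (1.03) was left out. Over time, 0 of 8 were called in wild type (3.66% of all genes) and 2 in kfc1-- (11.0%), TPO1 higher by 1.46 and TPO2 lower. The change over time differed between genotypes by the size of a call for TPO2 and for TPO4, at 1.07, where 3.84% of all genes were called, and TPO4 was at 0.98 without 6 h. For every comparison of kfc1-- at 2 to 12 h without overexpression, the result rests on adding the kfc1-- value at 0 h to the deposited ratios. Taken as deposited, TPO2 would differ between genotypes by the change over time of -2.95.

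IME1 overexpression went with much higher TPO2. In wild type the TPO2 ratios were 2.94, 2.87, 2.65, 3.14 and 2.74 at 2, 4, 6, 8 and 12 h, all far above the -0.55 to 0.16 seen without overexpression. The mean difference was 3.20, or 9.17-fold, and 18 of 6497 genes had a larger positive one. In kfc1-- the ratios were 2.65, 2.66, 2.38, 2.58 and 0.23, and the mean difference from kfc1-- without overexpression was 3.25, with the lowest, 1.31, at 12 h.

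TPO4 took the opposite course with IME1. In wild type it was at 0.45 at 0 h and then at -0.81, -1.43, -2.11, -2.28 and -2.49 from 2 to 12 h, each lower than the one before. In kfc1-- it was at 0.57 and then at -0.93, -1.91, -2.26, -2.33 and -1.04, so that only the step to 12 h went up. Relative to no overexpression the mean difference was -1.56 in wild type and -2.08 in kfc1--. TPO1 was not called in either genotype. In wild type it stood at 0.21, 0.12, 0.16, 0.29 and 0.42 with IME1, a mean difference of -0.36, and in kfc1-- the difference ran from -1.75 at 2 h to 1.87 at 12 h.

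With IME1 the members called were TPO2 and SPE4 higher and TPO4 lower, SPE4 at the edge of the rule in kfc1--. These were the same 3 of 8 in wild type, where 10.1% of all genes were called, and in kfc1--, where 6.89% were. Without 2 h or 8 h SPE4 was at 0.94 and 0.92 in kfc1--, and without 12 h TPO1 was called lower there, at -1.24. The difference between the genotypes in the effect of IME1 was called for 0 of 8 members, against 2.52% of all genes. The comparisons of the arms with the one without overexpression share that arm's conditions within a genotype.

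**Figure D2:**
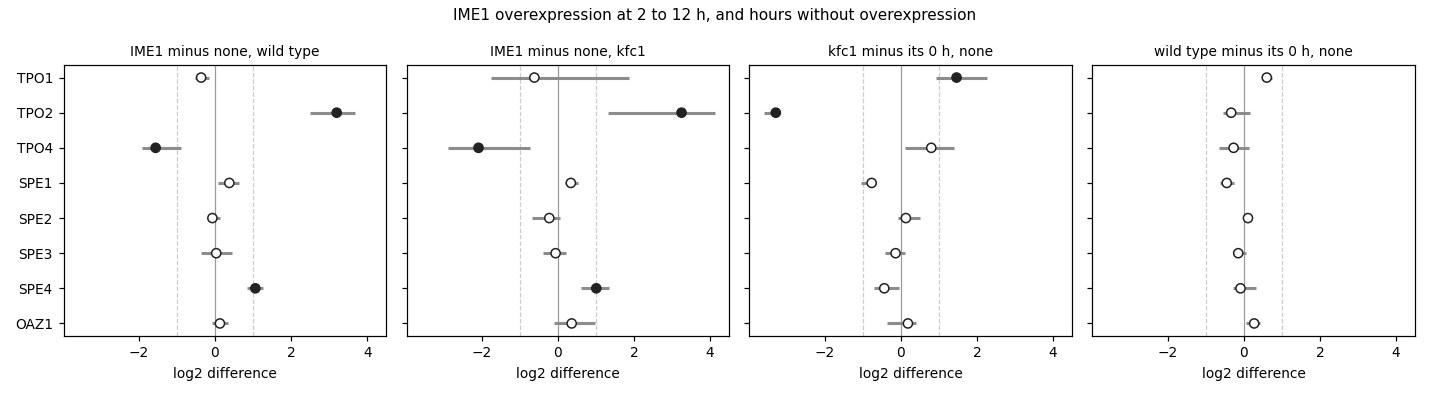
Log2 differences (horizontal axes) of the 8 members (vertical axis) in 4 panels, which are IME1 minus no overexpression at 2 to 12 h in each genotype, and the later times minus 0 h without overexpression in each genotype. Circles are means over the times, grey bars span the times, filled circles are called and dashed lines mark 2-fold. TPO2 lies at 3.20 and 3.25 with IME1, and at -3.28 over time in kfc1-- without overexpression.

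At 12 h with IME1 the 3 exporters of kfc1-- departed from wild type. TPO1 was at 0.55, 0.37, 0.37 and 0.30 from 2 to 8 h in kfc1-- and at 2.83 at 12 h, where wild type was at 0.42. That difference of 2.41, or 5.30-fold, was exceeded by 8 of 6506 genes. TPO2 differed by -2.51 and TPO4 by 1.45 at the same time. The 5 other members differed by 0.38 or less in size, and 3 of 8 members were called where 8.90% of all genes were. From 2 to 8 h, 0 of 8 were called against 0.477% of all genes, with TPO2 lower in kfc1-- by 0.21 to 0.56. Over all 5 later times 0 of 8 were called (0.708% of all genes).

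**Figure D3:**
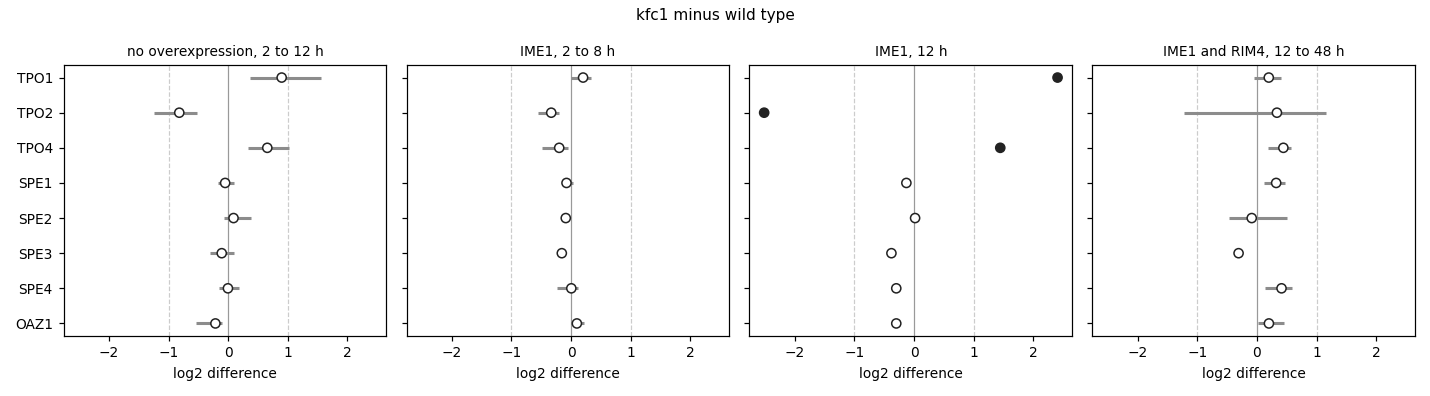
Log2 difference of kfc1-- minus wild type (horizontal axes) for the 8 members (vertical axis) in 4 panels, which are no overexpression at 2 to 12 h, IME1 at 2 to 8 h, IME1 at 12 h, and IME1 and RIM4 at 12 to 48 h. Circles are means over the times, grey bars span the times, filled circles are called and dashed lines mark 2-fold. Only the panel of IME1 at 12 h has filled circles, TPO1 at 2.41, TPO4 at 1.45 and TPO2 at -2.51.

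At 12 h the arm with IME1 and RIM4 could be set against the arm with IME1. In wild type TPO1 was at 1.70 with both genes and 0.42 with IME1, a difference of 1.28. In kfc1-- it was at 1.66 and 2.83, a difference of -1.16. With both genes the genotypes differed by -0.04 at that time, and with IME1 by 2.41. TPO2 differed by -1.07 in wild type, from 2.74 to 1.67, and by 0.22 in kfc1--, from 0.23 to 0.44. Of the 8 members 2 were called in wild type (15.0% of all genes) and 1 in kfc1-- (4.77%).

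Through 48 h with IME1 and RIM4, the kfc1-- ratio of TPO2 was below that of wild type at first and above it later. Wild type stood at 0.48, 1.67, 1.87 and 0.14 at 0, 12, 24 and 48 h, and kfc1-- at -0.61, 0.44, 3.03 and 1.21. Both were highest at 24 h, and the genotypes changed order between 12 and 24 h. The genotype differences were -1.09, -1.22, 1.16 and 1.07 in time order, so no call was made over the later times. Without 12 h the mean was 1.11, a call.

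TPO1 and TPO4 ran alike in both genotypes of that arm. TPO1 was at 0.10, 1.70, 1.39 and 0.88 in wild type and at -0.31, 1.66, 1.63 and 1.28 in kfc1--. TPO4 was at 0.72, -1.72, -1.42 and -0.59 in wild type and at 0.75, -1.15, -0.85 and -0.40 in kfc1--. TPO1 was highest and TPO4 lowest at 12 h in both. Over time 2 of 8 members were called in wild type, TPO1 (1.23) and TPO4 (-1.97), against 26.9% of all genes. Without 48 h TPO2 (1.28) and SPE1 (-1.06) were called as well. In kfc1-- 3 of 8 were called, TPO1 (1.84), TPO2 (2.17) and TPO4 (-1.55), against 33.7%, and SPE4 too (1.02) without 48 h. Between genotypes 0 of 8 were called at 12 to 48 h, where 2.41% of all genes were.

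Of the biosynthetic genes, SPE4 moved most. With IME1 the spermine synthase gene stood at 1.00, 0.87, 1.16, 0.97 and 0.88 from 2 to 12 h in wild type and at 1.12, 0.98, 0.92, 1.00 and 0.59 in kfc1--. Without overexpression its range at those times was -0.29 to 0.33 in wild type and -0.35 to 0.30 in kfc1--, with no overlap with the IME1 arm. The mean difference was 1.06, or 2.09-fold, in wild type and 1.01 in kfc1--. In the arm with IME1 and RIM4 it was at 0.73, 0.54, 0.15 and -0.06 in wild type and at -0.36, 0.68, 0.66 and 0.52 in kfc1--.

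SPE1, which encodes the first enzyme of the route, stayed within 2-fold of the common reference in all 32 conditions. Its lowest ratio was -0.98, in wild type with IME1 and RIM4 at 24 h, and its highest was 0.29, in wild type with IME1 at 0 h. Without overexpression it stood at -0.44, -0.25, -0.31, -0.63 and -0.60 at 2 to 12 h in wild type and at -0.43, -0.37, -0.38, -0.53 and -0.77 in kfc1--. Both genotypes lay below 0 at every one of these times, and neither was called over time.

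SPE2 lay between -0.97 and 0.58, and its lowest ratio was wild type with IME1 at 0 h. All its other ratios were between -0.40 and 0.58. SPE3, the spermidine synthase gene, had 2 ratios under -1, which were -1.66 in wild type and -1.02 in kfc1--, both with IME1 at 0 h. With IME1 it then stood at -0.64, -0.37, -0.07, 0.25 and 0.28 in wild type and at -0.83, -0.50, -0.24, 0.12 and -0.10 in kfc1--. Its ratios thus went up from 2 to 8 h in both genotypes, opposite to TPO4 in the same conditions.

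OAZ1 spanned the least, from -0.48 in kfc1-- without overexpression at 2 h to 0.63 in kfc1-- with IME1 and RIM4 at 48 h. No comparison called it. With IME1 it stood at 0.42, 0.57, 0.39, 0.22 and 0.44 from 2 to 12 h in wild type and at 0.50, 0.59, 0.45, 0.44 and 0.14 in kfc1--. Both sets lay above 0.

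**Figure D4:**
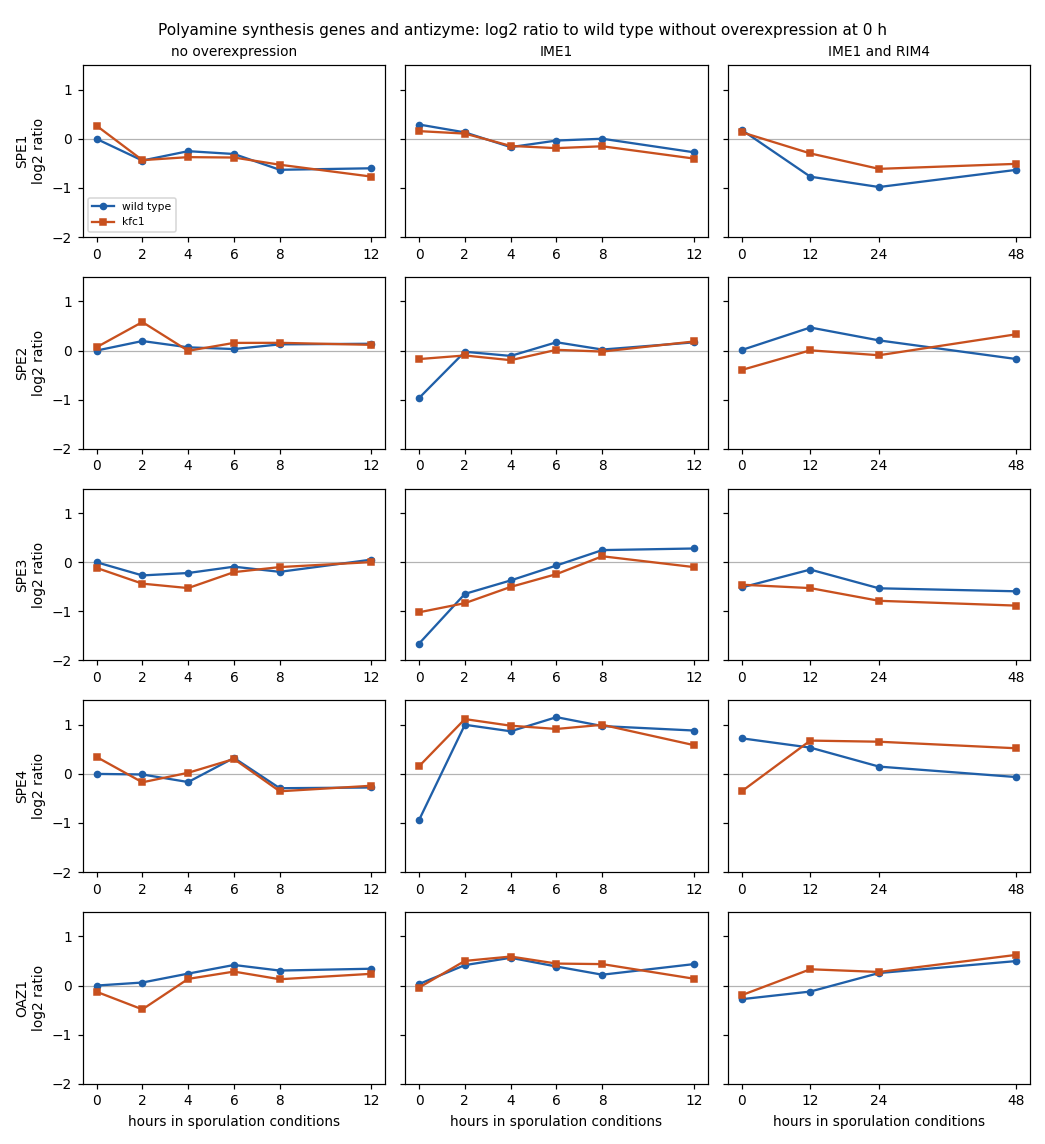
Log2 ratio to wild type without overexpression at 0 h (vertical axes) of SPE1, SPE2, SPE3, SPE4 and OAZ1 against hours in sporulation conditions (horizontal axes), 1 point per combined condition, lines joining the times of a genotype and arm. SPE4 with IME1 lies at 0.59 to 1.16 after 0 h, and the lowest points of SPE2, SPE3 and SPE4 are all wild type with IME1 at 0 h.

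The start of the IME1 arm bears on the counts over time. In wild type with IME1 at 0 h TPO1 was at -0.90, TPO2 at -0.94, SPE2 at -0.97, SPE3 at -1.66 and SPE4 at -0.94, the lowest ratio of the series for TPO1, SPE2, SPE3 and SPE4. Measured from that start, 6 of 8 members were called over time in wild type, where 36.6% of all genes were. They were TPO2 (3.81), SPE4 (1.92), SPE3 (1.55), TPO1 (1.14), SPE2 (1.01) and, lower, TPO4 (-2.27). Measured from wild type without overexpression at 0 h, only TPO2 and TPO4 were called, and SPE3 had a mean of -0.11. From the arm's own start SPE2 was at 0.98 when 6 h or 12 h was left out. In kfc1-- 1 of 8 was called, TPO4 at -2.26, where 14.7% of all genes were, and TPO2 joined it at 1.89 without 12 h.

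At 0 h the genotypes also differed in the overexpression arms. With IME1, TPO2 (1.62), TPO1 (1.17) and SPE4 (1.10) were called higher in kfc1--, where 12.6% of all genes were called and 10.7% were higher. With IME1 and RIM4, TPO2 (-1.09) and SPE4 (-1.08) were called lower in kfc1--, where 2.74% of all genes were called. TPO2 and SPE4 were thus on opposite sides in the 2 overexpression arms, and TPO2 was higher in kfc1-- at 0 h without overexpression as well. The IME1 difference takes in the wild-type 0 h condition that stood apart, whose part in it was not tested, and the difference with IME1 and RIM4 does not use that condition.

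Over the 32 conditions TPO2 and SPE4 ran together, with a Pearson r of 0.84 and a Spearman rho of 0.83. Within arms r was 0.51 over the 12 conditions without overexpression, 0.90 over the 12 with IME1 and 0.54 over the 8 with IME1 and RIM4. TPO2 and TPO4 ran opposite, with r of -0.80 over all conditions and -0.57, -0.74 and -0.61 in the same 3 arms. TPO1 and SPE1 also ran opposite, at -0.66 overall and -0.42, -0.70 and -0.80 by arm. TPO1 and TPO4 were at 0.77 without overexpression, -0.15 with IME1 and -0.92 with IME1 and RIM4. The conditions are not independent, since all ratios share 1 reference and successive times follow each other, so these values describe the conditions only.

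**Figure D5:**
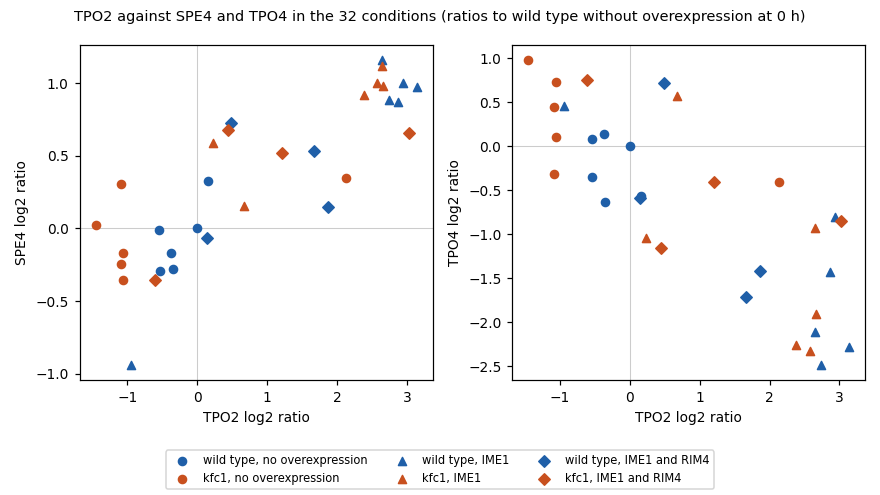
TPO2 log2 ratio (horizontal axes) against the log2 ratios of SPE4 and TPO4 (vertical axes), 1 point for each of the 32 conditions, by genotype and arm. Points rise from lower left to upper right for SPE4 (r of 0.84) and fall for TPO4 (r of -0.80).

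The genes whose course was most like that of a member were sought among 2280 annotated genes with an SD of at least 0.5 over the conditions. The 5 highest with TPO2 were AIM26 (r of 0.86), SPE4 (0.84), SNU13, a protein of small ribonucleoprotein particles (0.84), YBL081W (0.83) and ELO2, a fatty acid elongase (0.83). The 3 lowest were POT1, the thiolase of peroxisomal fatty acid breakdown (-0.95), ATH1, a trehalase (-0.90), and IDP3, a peroxisomal isocitrate dehydrogenase (-0.89). POT1 was also the lowest by rank correlation (-0.96) and over the 12 conditions without overexpression (-0.99).

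For SPE1 the 5 highest were TRR1, a thioredoxin reductase (0.90), BAP3, an amino acid permease (0.88), SCW4 (0.87), DLD1, a lactate dehydrogenase (0.87), and ALT1, an alanine transaminase (0.85). The 3 lowest were POL4 (-0.91), ZPR1 (-0.89) and YCL048W-A (-0.88). For TPO1 the highest were YDR215C (0.93), YCR025C (0.86), the copper transporter gene CTR3 (0.86), the chaperone gene HSC82 (0.85) and the myosin gene MYO1 (0.85). The lowest were PHO89, a phosphate transporter (-0.87), ENB1, an iron siderophore transporter (-0.86), and CLN3, a cyclin (-0.85).

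Genes around the pathway were read as 8 lists with 61 entries. The list named precursor supply has 6 genes, which make, use or move ornithine or make S-adenosylmethionine. ARG3 and CAR2 encode enzymes that use ornithine, so counts of this list do not stand for supply alone. Of these, 5 were called higher with IME1 in wild type, against 6.08% of all genes higher, and 0 in kfc1--, against 4.06%. Over time with IME1 all 6 were called higher in both genotypes (24% and 9.69% of all genes higher). These counts start from the arm's own 0 h, which in wild type stood apart, and the other start was not run for the lists. Between genotypes with IME1 at 2 to 12 h 0 of 6 were called (0.708% of all genes). The highest with IME1 against none in wild type were CAR1, the arginase gene (2.37), SAM1, an S-adenosylmethionine synthetase gene (1.51), and ARG3, which encodes ornithine transcarbamylase (1.25). The list median was 1.20 in wild type, against 0.02 over all genes, and 0.42 in kfc1--. The effect of IME1 differed between genotypes by the size of a call for 2 of the 6, CAR1 (-1.99) and ARG3 (-1.70), where 2.52% of all genes were called. Without overexpression at 2 to 12 h CAR1 (1.43) and ARG3 (1.42) were higher in kfc1-- than in wild type. With RIM4 added in wild type at 12 h, where 15.0% of all genes were called, 4 of the 6 were lower, ORT1 (-1.72), CAR1 (-1.62) and ARG3 (-1.34) among them, and 1 higher, SAM2 (1.37).

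The uptake list (10 genes) held the permeases that differed most between genotypes without overexpression. UGA4, which carries GABA and putrescine, was higher in kfc1-- by 2.54, the general amino acid permease GAP1 by 2.09 and the urea and polyamine permease DUR3 by 1.82, and the other 7 were not called, where 1.80% of all genes were. With IME1 in kfc1-- these 3 were lower than without it, by means of -2.09, -2.21 and -1.91, and in wild type 0 of 10 were called (6.89% and 10.1% of all genes). Between genotypes with IME1 and RIM4 at 12 to 48 h 3 of 10 were called higher (1.49% of all genes higher). TPO1 was also above wild type at all 5 of those times without overexpression, and whether the exporter and the permeases are linked was not tested.

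Among 7 other listed DHA1 exporters, DTR1, the bisformyl dityrosine exporter of the spore wall, moved most. Its mean change over time with IME1 and RIM4 was 7.03 in wild type and 5.71 in kfc1--, and with IME1 at 12 h its difference of kfc1-- from wild type was -2.98. QDR2 was higher with IME1 in wild type (1.11) and in kfc1-- than in wild type without overexpression (1.13). Of the 4 hypusine genes, LIA1, which encodes deoxyhypusine hydroxylase, was higher with IME1 in both genotypes (1.60 and 1.45), and ANB1, the eIF5A gene of low oxygen, was lower (-1.31 and -2.25). DYS1 and HYP2, the deoxyhypusine synthase and the main eIF5A genes, were not called there. Of all genes, 10.1% were called in wild type and 6.89% in kfc1--.

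Of 4 genes of polyamine use and breakdown, ALD3, an aldehyde dehydrogenase gene, was lower with IME1 in wild type (-3.85) and in kfc1-- (-2.10). It was the only 1 of the 4 called in each, where 10.1% and 6.89% of all genes were. The 9 genes of methylthioadenosine salvage, which recycles the by-product of spermidine and spermine synthesis, had 0 called with IME1 in either genotype (10.1% and 6.89% of all genes) and 0 between genotypes without overexpression at 2 to 12 h (1.80%), counts near those shares. At 12 h with IME1 they had 3 called between genotypes, where 8.90% of all genes were called. BAT1 was higher in kfc1-- (2.28), ARO9 higher (1.44) and ARO8 lower (-1.51). All 3 encode amino acid aminotransferases, and MEU1, MRI1, MDE1, UTR4 and ADI1 of the list were not called there.

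The last lists hold regulators known for exporter genes and their targets. Of 11 genes of the Haa1 list, which holds the weak acid response activator and its targets, 5 were lower and 1 higher with IME1 in wild type (3.97% of all genes lower and 6.08% higher), and 2 were lower and 1 higher in kfc1-- (2.84% and 4.06%). In wild type GRE1 (-5.43), SPI1 (-2.08) and YRO2 (-1.97) were the lowest. At 12 h with IME1, 2 of the 11 were higher in kfc1-- and 1 lower (4.29% of all genes higher and 4.61% lower), YGP1 at 1.31 and COM2 at -1.44 among them. Of 10 genes of the Pdr1 list of multidrug resistance, PDR10 was lower with IME1 in wild type (-1.72). It was the only 1 called there, a count near the share of 10.1% of all genes, and 0 were called in kfc1-- (6.89%). At 12 h with IME1, 2 of the 10 were called between genotypes, where 8.90% of all genes were called. The drug pump gene PDR5 (2.18) and SNQ2 (1.06) were higher in kfc1--. TPO1 was higher in that condition too, and whether it is linked to them was not tested.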

How the data were processed

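Polyadenylated RNA was sequenced in 64 samples, 2 replicates in each of 32 groups. Per the submitters' processing notes, the tools were BWA and DESeq2 and the build was sacCer3, with no role stated for either tool. The single table deposited by the authors held 1 log2 ratio per gene and group, replicates combined. The logarithm was taken to base 2, which the header does not state. Not given in the sources used here were the read counting, the annotation and whether ratios were shrunken. The table holds no read count or level, so the depth behind each value, and with it the precision, is unknown. Where replicates are pooled, neither limma nor a permutation of samples could be run, so no test was made.

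The deposited column of wild type without overexpression at 0 h was 0 for every gene. Of the values of 160 genes blank in a wild-type column without overexpression, 0 of 401 were negative in other arms and 31 of 102 in the 5 columns of kfc1-- from 2 to 12 h in the arm with none. Genes blank in any of those 5 columns numbered 165, and the 160 were not left out of this count, so the sets can overlap. Of the 84 values of the 165 in the 5 columns, 0 were negative. So the denominator of the 5 columns was taken to be kfc1-- at 0 h, whose ratio was added to them. Column medians lay between -0.03 and 0.01.

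Mean differences and calls were computed for 18 planned comparisons and for 2 time windows of the IME1 arm chosen after seeing the data. The rule was also run on simulated data. Unchanged genes there had no mean difference by construction, so that run gives no rate of false calls. The members, the lists and the choices of comparison were made with earlier results of these data known. The genes named were all 8 members, up to 3 genes of a list with the largest differences, and the 5 highest and 3 lowest correlations with TPO2, SPE1 and TPO1, the latter being the member with the next widest range. Sequences came from RefSeq's R64 assembly, the same assembly as sacCer3, and 5986 of the identifiers were in its annotation and 674 were not. No member's value was shared exactly with another gene. The alternatives were each column centred on its median, RefSeq genes only, no same-sign rule, thresholds of 1.5-fold and 3-fold, the median over times, each time left out, and the 5 columns as deposited. Those added after seeing the data were another start for the IME1 arm and the 2 windows. Some items are not reported here. Python 3.11.15, numpy 2.4.6, pandas 2.3.3 and matplotlib 3.10.9 were used.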

Additional observations from a re-analysis of the deposited data

Results flagged for a closer look

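TPO2 differed between genotypes in opposite directions at 0 h of different arms. Its kfc1-- minus wild type difference was 2.13 without overexpression, 1.62 with IME1 and -1.09 with IME1 and RIM4. SPE4 did so between the 2 overexpression arms, at 1.10 with IME1 and -1.08 with IME1 and RIM4. TPO1 differed in sign between genotypes when RIM4 was added to IME1 at 12 h, at 1.28 in wild type and -1.16 in kfc1--. Each value compares single combined ratios, and the differences between arms or genotypes were not tested.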

How the results depend on the processing

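No paired analysis was possible because the authors combined the replicates of each group into 1 ratio, and leaving out each replicate was not run for the same reason. The alternatives gave 1328 values of the 8 members' mean differences. Of these, 37 passed the threshold only under the alternative and 27 lost it with the sign kept. In 1 more it was lost with a change of sign. The 1.5-fold threshold gave 19 of the 37, and the 3-fold threshold gave 17 of the 27. Those thresholds, RefSeq genes only and no same-sign rule leave a mean difference as it is, so the sign could not change under them. The sign changed in 39, of which 38 were of differences not called in the main values. The called one was SPE3 over time in wild type with IME1, at -0.11 with 0 h without overexpression as the start. With that start TPO2 over time in kfc1-- with IME1 went from 1.43 to -0.03 and SPE3 there from 0.71 to -0.20. Between genotypes with IME1 and RIM4 at the later times TPO2 went from 0.33 to -0.08 without 24 h and to -0.03 without 48 h.

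With a threshold of 1.5-fold the members called were 3 between genotypes without overexpression at 2 to 12 h, 5 with IME1 at 0 h and 2 with IME1 at 2 to 12 h. Over time they were 1 in wild type without overexpression, 4 in kfc1-- without overexpression, 4 in kfc1-- with IME1 and 6 in kfc1-- with IME1 and RIM4. With 3-fold they were 1 between genotypes with IME1 at 0 h and 0 with IME1 and RIM4 at 0 h. Over time they were then 1 in kfc1-- without overexpression, 3 in wild type with IME1 and 1 in wild type with IME1 and RIM4. With 3-fold, 1 was called for IME1 in wild type, 0 and 0 for RIM4 in wild type and kfc1--, and 1 for the change over time between genotypes without overexpression. The share of all genes called was not computed at these thresholds, so the counts cannot be read against it.

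Leaving out 8 h or 12 h gave 1 member each between genotypes without overexpression, and leaving out 12 h gave 1 between genotypes with IME1 and RIM4 and 2 over time in kfc1-- with IME1. Leaving out 48 h gave 4 over time in wild type with IME1 and RIM4, and leaving out 6 h gave 1 for the change over time between genotypes without overexpression. Without the same-sign rule 2 were called over time in kfc1-- with IME1. At 12 h alone 3 were called between genotypes with IME1. From the start at 0 h without overexpression 2 were called over time in wild type with IME1. With the 5 columns as deposited, 2 were called between genotypes without overexpression, 4 over time in kfc1--, and 1 for IME1 between genotypes. Apart from 8.90% at 12 h alone, the share of all genes called is not given for these settings, so the counts cannot be read against it. The causes were not tested. The depth is unknown, so how far genes with few reads limit these ratios cannot be given.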
